A study of Mus with 96 samples.

Results

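The livers described here are the 24 of 96 in the series whose label gives chow diet and the genotype Hep-Bmal1KO, 4 at each of ZT2, ZT6, ZT10, ZT14, ZT18 and ZT22. Hep-Bmal1KO stands for AlbCre/+ Bmal1flx/flx mice on a C57BL/6J background, in which a Cre recombinase under the albumin promoter removes the floxed part of Bmal1 (listed as Arntl) in hepatocytes, while the other cells of the liver keep the gene. The mice were 8 to 10 weeks old when housing began, were fed normal chow (NC) with free access, and lived under 12 hours of light and 12 hours of darkness, with ZT0 at lights on and ZT12 at lights off. Each ZT held 2 males (replicates 1 and 2) and 2 females (replicates 3 and 4), each mouse was killed once, and total liver RNA was read at its 3′ end by BRB-seq, a pooled barcoded RNA sequencing method. The comparison is of times of day within this group, and asks which transcripts of the liver still followed the day when the hepatocyte clock was deleted. No contrast between genotypes is reported, and the genotype labels were compared only to check where each library lay between them.

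The hepatocyte clock is a feedback loop in which BMAL1 and CLOCK switch on the Per and Cry genes, whose products shut BMAL1 and CLOCK off again, while REV-ERB proteins (Nr1d1 and Nr1d2) repress Bmal1. A liver without this loop still sits in a mouse with a working clock in the brain, and so it still receives timed meals, a daily swing of body temperature, a daily wave of corticosterone and signals from nerves. Heat shock genes respond to temperature, Tsc22d3 and Per1 respond to glucocorticoids, sterol and fatty acid synthesis genes respond to food and insulin through SREBP factors, and immediate early genes such as Egr1 answer growth factors through serum response factor.

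Between 4441385 and 8599309 reads per library fell on genes, with a median of 6383169, and levels are given as CPM, counts scaled to the TMM library size. Hepatocyte markers made up between 85100 and 188000 CPM. Lymphocyte markers summed to between 4.45 and 20.2 CPM and adipocyte markers to between 3.17 and 61.3 CPM. The 6 ZTs came from mice with 6 separate ranges of mouse numbers, and the names of the libraries put ZT2 with ZT6, ZT10 with ZT14, and ZT18 with ZT22 in 3 columns, so that time of day cannot be told apart from a series of mice or, for the steps between columns, from the column. No column held more than 2 ZTs, so no 24-hour curve could be fitted within one. In bulk tissue, fewer cells of a type and less RNA per cell cannot be told apart.

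Of the 24 libraries, 7 stood apart from the others. Scored on 10 clock genes and, separately, 20 further genes, the female replicate 4 at ZT6 lay at -0.169 and -0.213, and the female replicate 3 at ZT10 at -0.0889 and -0.0455, on a scale where 0 is the median of the Hep-Bmal1WT label and 1 that of the Hep-Bmal1KO label at the same ZT. The 10 were Arntl, Clock, Npas2, Per1, Per2, Cry1, Cry2, Nr1d1, Nr1d2 and Dbp, so their values in these livers are not separate evidence. The 20, outside the clock list, had the smallest edgeR p for the genotype label at the other ZTs on chow. The lowest of the other 22 libraries lay at 0.50 on the clock genes and at 0.618 on the others. Albumin (Alb) stood at 128000 and 149000 CPM in these 2 livers and between 28000 and 75400 CPM in the other 22. Markers of the exocrine pancreas, an organ that lies against the liver, summed to 1980 CPM in the male replicate 2 and to 1060 CPM in the female replicate 4 at ZT18, against 15.2 to 137 CPM in the other 22 libraries. Skeletal muscle alpha-actin (Acta1) reached 109 CPM in the female replicate 4 at ZT10, 283 CPM in the male replicate 1 at ZT14 and 109 CPM in the male replicate 1 at ZT18, against at most 4.76 CPM in the other 21. The adipocyte markers were also highest in these 3, at 61.3, 61 and 44.5 CPM, against at most 25.8 CPM in the other 21. Of these 7 libraries, 3 were from ZT18. Results are given with all 24 libraries, and the counts of most lists also without those doubted.

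**Figure D1:**
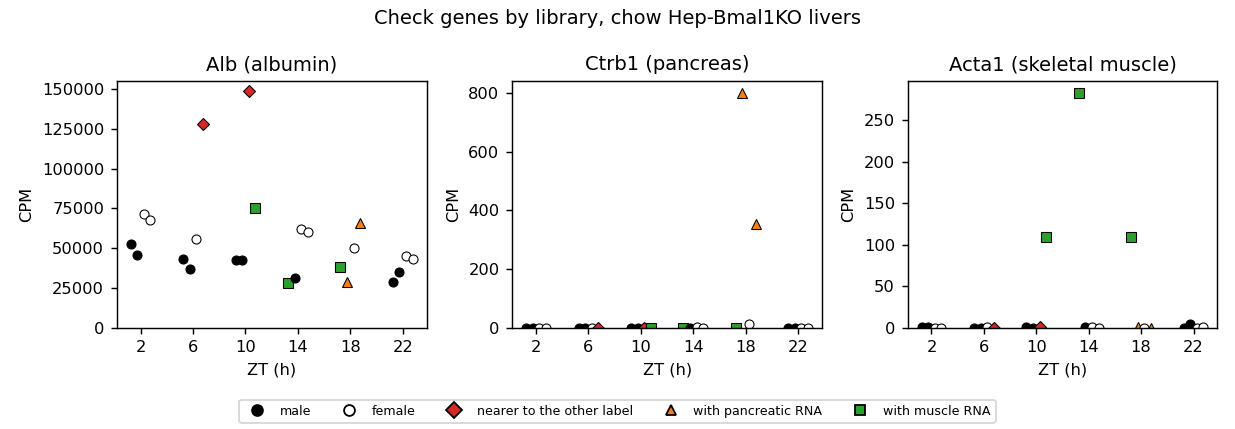
CPM of Alb, Ctrb1 and Acta1 (vertical axes, linear) against ZT in hours (horizontal axes), with 1 point per library and no averaging, in the 24 chow Hep-Bmal1KO livers. The 2 libraries nearer to the other label stand highest for Alb at 128000 and 149000 CPM, and the libraries with pancreatic or muscle RNA stand out for Ctrb1 or Acta1 alone.

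A 24-hour rhythm was called for 675 of 15548 genes, 4.34%, by edgeR's quasi-likelihood F test of the joint sine and cosine terms, adjusted after Benjamini and Hochberg over all genes (adjusted p under 0.05). Amplitude is given as the fitted distance from the mean to the peak on the log2 scale of variance-stabilized values. The called genes had a median amplitude of 0.386, with the 10th and the 90th percentile at 0.260 and 0.667, against a median of 0.153 over all genes tested, and their peak time had a median standard error of 0.883 h. The fitted peak stood at least 1.5-fold above the trough in 554 of the called genes, at least 2-fold in 170 and at least 4-fold in 22. By the rule of the study, an unadjusted p under 0.01 in any tool, here a cosinor F test, JTK_CYCLE or edgeR, 1728 genes or 11.1% were called.

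With all 24 libraries the windows around ZT6 and ZT18 held the most peaks, which was not so in every set of libraries. Of the 675 genes, 35 had their fitted peak between ZT0 and ZT4, 176 between ZT4 and ZT8, 125 between ZT8 and ZT12, 80 between ZT12 and ZT16, 171 between ZT16 and ZT20, and 88 between ZT20 and ZT24. The dark phase held 50.2% of the peaks. Without the 2 label-discordant libraries 605 genes were called, 3.89%, of which 470 were among the 675, and the numbers in the same windows were 35, 180, 74, 77, 188 and 51, so that the windows around ZT10 and ZT22 held fewer genes. Without the 2 libraries with pancreatic RNA 261 genes were called, with 12, 52, 58, 47, 54 and 38 in these windows, so that the window around ZT10 was the highest. The call was lost there by 124 of the 171 genes of the window around ZT18 and by 420 of all 675. Without the 3 libraries with muscle RNA 204 genes were called, with 10, 44, 48, 10, 66 and 26, and 477 of the 675 lost their call. In females alone the window around ZT10 held 32 genes and that around ZT6 21. Without all 7 there were 14, or 0.0900%, in a set of 17 libraries with 1 left at ZT18. Leaving out a single library gave between 430 genes (without the male replicate 1 at ZT18) and 835 genes (without the female replicate 4 at ZT6).

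**Figure D2:**
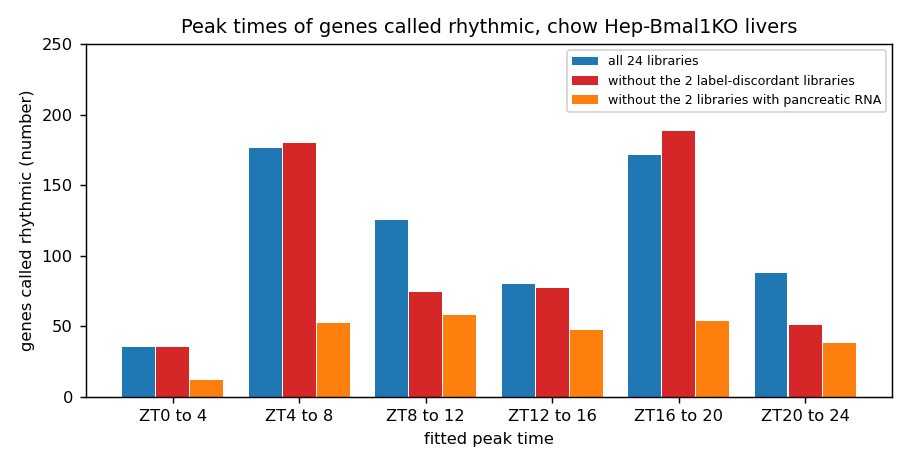
Number of genes called rhythmic (vertical axis, from 0) by the 4-hour window of the fitted peak (horizontal axis) for all 24 libraries, without the 2 label-discordant libraries and without the 2 libraries with pancreatic RNA. With all 24 libraries the windows from ZT4 to ZT8 and from ZT16 to ZT20 are highest, with 176 and 171 genes.

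The 14 genes called without the 7 doubted libraries covered most of the day. They were the REV-ERB gene Nr1d1, Per1, the phosphatidate phosphatase Lpin1, the sterol exporter Abcg8, the linker histone H1f2, the tubulin Tuba1c, the glucose-6-phosphate transporter Slc37a4, the neutrophil genes S100a8 and S100a9, Paqr9, Car1, Ttc39b, Tmem41a and Hapln4. Of these, 9 fall outside the rule for naming genes and are named because they are few. All 14 were also called with the 24 libraries, and their amplitudes without the 7 ran from 0.376 for Slc37a4 to 1.05 for Nr1d1. Among the 9, Slc37a4 peaked at ZT15.1, Ttc39b at ZT3.77, Abcg8 at ZT7.48 and Paqr9 at ZT23.3 in the fit to the 17 libraries.

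Of the 22 core clock and output genes, 8 were called rhythmic, 36.4% against the 4.34% of all genes, with peaks between ZT8.36 and ZT13.0. These were Per1, a negative arm gene that also answers hormones and feeding, the repressors Nr1d1, Nr1d2 and Ciart, the PAR bZIP output genes Dbp, Tef and Hlf, and the deubiquitinase Usp2. Among the 14 not called, Arntl, Clock and Npas2 of the positive arm had adjusted p values of 0.414, 0.823 and 0.432, Cry1 and Cry2 0.675 and 0.486, Per2 0.0543 and Per3 0.0693. Without the 2 label-discordant libraries 7 of the 22 were called, without the pancreatic ones 7, without those with muscle RNA 6, and without all 7 doubted libraries 2, Nr1d1 and Per1.

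The targeted gene Arntl (chromosome 7, 113178471 to 113314126, GRCm38.p6) was read in all 24 livers. Since the reads come from the 3′ end of the mRNA and the excised part is internal, its counts do not check the deletion. It stood at 6.65, 6.90, 9.21 and 11 CPM at ZT2 (replicates 1 to 4), at 5.46, 4.53, 9.53 and 1.03 CPM at ZT6, at 7.60, 5.48, 0.221 and 6.81 CPM at ZT10, at 5.86, 4.03, 3.69 and 6.25 CPM at ZT14, at 6.64, 5.69, 5.98 and 8.68 CPM at ZT18, and at 6.40, 8.40, 6.99 and 7.10 CPM at ZT22. The lowest values, 1.03 and 0.221 CPM, were those of the 2 label-discordant livers, whose score included this gene. The other 22 lay between 3.69 and 11 CPM, with neighbouring times overlapping and all livers of ZT2 above those of ZT14.

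Per1 (chromosome 11, 69095108 to 69109965) had the smallest p of the clock genes. It measured 7.76, 15.7, 29.8 and 18.2 CPM at ZT10 and 1.39, 1.68, 1.92 and 1.96 CPM at ZT22, groups that did not overlap. At ZT2, ZT6, ZT14 and ZT18 the means were 3.75 ± 2.10, 5.58 ± 3.29, 7.37 ± 1.95 and 3.09 ± 1.20 CPM (SD, n = 4). The fitted peak was at ZT10.25 (standard error 0.559 h) with an amplitude of 0.986 (standard error 0.144), a 3.93-fold swing from trough to peak, and an adjusted p of 8.05e-05 in edgeR's test. Without the 7 doubted libraries the amplitude was 0.728, the peak ZT11.0 and the adjusted p 0.0352.

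Nr1d1 (chromosome 11, 98767932 to 98775377), which encodes the heme-binding repressor REV-ERB alpha, peaked at ZT8.44 (standard error 0.670 h) with an amplitude of 1.35 (standard error 0.236) and an adjusted p of 0.00011 in edgeR's test. At ZT6 it stood at 12.0, 9.25, 14.1 and 71.4 CPM and at ZT10 at 5.86, 7.67, 45.2 and 9.04 CPM, where 71.4 and 45.2 CPM were again the 2 label-discordant livers. At ZT18 it measured 1.85, 1.78, 1.22 and 2.06 CPM and at ZT22 1.53, 1.26, 1.23 and 1.36 CPM, all below every library of ZT6 and ZT10. Without the 2 discordant libraries the amplitude was 0.992 at an adjusted p of 0.00014, and without all 7 it was 1.05 at 0.00538.

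The output gene Dbp, a transcription factor of detoxification genes, depended more on the discordant livers. At ZT10 it measured 20.9, 32.9, 319 and 37 CPM and at ZT6 8.71, 12.4, 14.0 and 125 CPM. The remaining ZTs had means of 6.55 ± 3.14, 12.1 ± 4.24, 6.27 ± 2.23 and 7.52 ± 2.12 CPM at ZT2, ZT14, ZT18 and ZT22 (SD, n = 4). Even without replicate 3, the ZT10 livers lay above every liver of those 4 times. The amplitude was 1.26 (standard error 0.311) with a peak at ZT9.30 and an adjusted p of 0.00186 in edgeR's test. It was 0.787 without the 2 discordant libraries (adjusted p = 0.00265), and 0.616 without all 7, where it was not called (adjusted p = 0.0997).

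Ciart, a repressor of CLOCK and BMAL1, was read at 0.475, 2.74, 21.2 and 3.34 CPM at ZT10 and at 6.61 CPM in the discordant liver of ZT6, and at no more than 1.29 CPM in any other library. With the 24 libraries edgeR's test gave an adjusted p of 0.00458 and the amplitude was 0.829 (standard error 0.246), against 0.519 without the 2 discordant ones (adjusted p = 0.0444). Per2 was highest at ZT14, with 18.2, 15.6, 18.1 and 17.7 CPM, and lowest at ZT6, with 8.26, 7.88, 3.13 and 7.34 CPM. These groups did not overlap, and the test over the 24 libraries gave an adjusted p of 0.0543, an amplitude of 0.492 (standard error 0.134) and a peak at ZT14.6. Nr1d2, Tef, Hlf and Usp2 had amplitudes of 0.928, 0.324, 0.333 and 0.736. Without the 2 discordant libraries the amplitude of Nr1d2 was 0.561 (adjusted p = 0.0425) and that of Tef 0.188, where it was not called (adjusted p = 0.0665). Hlf and Usp2 kept their calls there, and Tef lost its call in 14 of the 24 fits that left out a library, with the largest adjusted p, 0.116 in edgeR's test, without the female replicate 3 at ZT10.

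**Figure D3:**
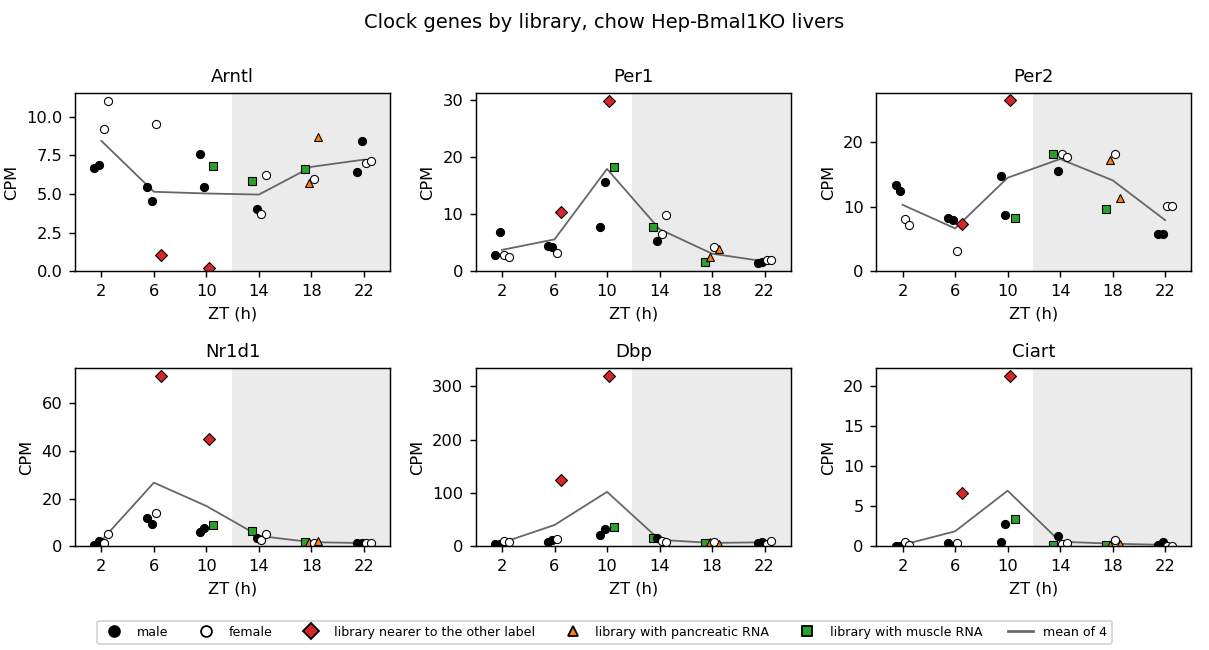
CPM (vertical axes, linear, from 0) of 6 clock genes against ZT in hours (horizontal axes, dark phase shaded), with 1 point per library, the 7 doubted libraries marked by symbol, and a line through the means of 4. For Nr1d1, Dbp and Ciart the 2 label-discordant livers at ZT6 and ZT10 lie far above the others, and for Per1 and Per2 the rise toward ZT10 and ZT14 is seen in the remaining livers too.

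Of the 18 glucocorticoid-responsive genes, 6 were called (33.3%, against 4.34% of all genes). Their peaks lay between ZT10.2 and ZT16.0 around a circular mean of ZT13.0, near lights off. The data hold no corticosterone values, and a part of the hormone in these rhythms was not tested. The called genes were Per1, the anti-inflammatory leucine zipper gene Tsc22d3 (GILZ), the zinc finger repressor Zbtb16, serine dehydratase (Sds), the phosphatase Dusp1 and the mTOR inhibitor Ddit4, with amplitudes from 0.498 to 0.986. Without the label-discordant libraries 7 were called, without the pancreatic ones 5, without those with muscle RNA 3, and without all 7 doubted libraries Per1 alone. Other known targets were not called, among them Fkbp5 with an amplitude of 0.319 (adjusted p = 0.37 in edgeR's test), Sgk1 with 0.502 (0.413) and Tat with 0.205 (0.796).

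Tsc22d3 on the X chromosome stood at 259, 107, 191 and 174 CPM at ZT14 and at 148, 200, 142 and 166 CPM at ZT18, against 63.6, 80.5, 61.4 and 45 CPM at ZT6. The ZT6 livers lay below all those of ZT14 and ZT18. At ZT10 the values of 137, 187, 76.8 and 143 CPM overlapped both. The amplitude was 0.657 (standard error 0.129), the peak ZT15.2 (standard error 0.748 h) and the adjusted p 0.00565 in edgeR's test, and without the 7 doubted libraries the amplitude was 0.498 at an adjusted p of 0.137. The lowest ZT10 liver, at 76.8 CPM, was the label-discordant one.

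Heat shock and chaperone genes peaked together in the dark. Of 20 tested, 10 were called (50%, against 4.34% of all genes), 9 of them with a peak between ZT16 and ZT20 and 1, Hspe1, at ZT21.3, around a circular mean of ZT18.9. The called members were the HSP90 genes Hsp90aa1 and Hsp90ab1, their co-chaperones Ahsa1, Fkbp4, Stip1 and Chordc1, the HSP70 gene Hspa8 with its partner Dnaja1, the small heat shock gene Hspb1 and the mitochondrial co-chaperone Hspe1, at amplitudes from 0.283 for Ahsa1 to 0.815 for Hspb1. The strongly inducible Hspa1a and Hspa1b were not called, at amplitudes of 0.583 and 1.20 (adjusted p = 0.519 and 0.16 in edgeR's test), and the cold-inducible RNA-binding genes Cirbp and Rbm3 had amplitudes of 0.263 and 0.174 (adjusted p = 0.662 and 0.559). The count of 10 became 8 without the label-discordant libraries, 3 without the pancreatic ones, 3 without those with muscle RNA and 0 without all 7.

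Hsp90aa1 (chromosome 12, 110691036 to 110696395), the stress-inducible HSP90, measured 205, 138, 180 and 230 CPM at ZT18, 79.5, 66.8, 47.4 and 42 CPM at ZT10, and 93.5, 69.9, 83.1 and 89.8 CPM at ZT6. All livers of ZT2, ZT14, ZT18 and ZT22 lay above all those of ZT6 and ZT10, and within the dark phase the times overlapped. The peak was at ZT19.9 (standard error 0.665 h), the amplitude 0.695 (standard error 0.121), and the adjusted p 0.00321 in edgeR's test. Without the 7 doubted libraries the amplitude was 0.546, the peak ZT19.4, and the adjusted p 0.137. Hspb1 reached 114 CPM in the female replicate 4 at ZT18, one of the livers with pancreatic RNA, and 119 CPM in the female replicate 4 at ZT22, and between 9.61 and 61.3 CPM in the other livers.

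Of 22 unfolded protein response and endoplasmic reticulum chaperone genes 3 were called (13.6%, against 4.34% of all genes), Dnajb11, Hspa5 (BiP) and Sdf2l1, with peaks between ZT19.3 and ZT20.0 and amplitudes of 0.511, 0.623 and 0.665. Dnajb11 stood at 111, 100, 102 and 125 CPM at ZT18 and at 51.5, 59.9, 31.3 and 35.2 CPM at ZT10, without overlap. Creld2 and Manf, both secreted on ER stress, had amplitudes of 0.782 and 0.645 at adjusted p values of 0.0623 and 0.0513 in edgeR's test, while the transcription factor genes Atf4 and Xbp1 had amplitudes of 0.0913 and 0.120 (adjusted p = 0.543 and 0.773). Hspa5 was also among the 25 genes (0.161% of those tested) with a 12-hour term. Its means were 427 ± 158 CPM at ZT2, 257 ± 25.2 at ZT6, 174 ± 23.7 at ZT10, 516 ± 60.4 at ZT14, 542 ± 71.1 at ZT18 and 365 ± 61.1 at ZT22 (SD, n = 4). All livers of ZT14 and ZT18 lay above all those of ZT6 and ZT10, and the livers of ZT2, from 304 to 637 CPM, overlapped those of ZT14, ZT18 and ZT22. The count of 3 called genes became 4 without the label-discordant libraries, 1 without the pancreatic ones, 1 without those with muscle RNA and 0 without all 7.

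Sterol synthesis genes made the list with the most members called. Of 22 tested, 14 were called (63.6%, against 4.34% of all genes). Of these, 12 had peaks between ZT20 and ZT24 and 2 between ZT0 and ZT4, around a circular mean of ZT22.7, late in the dark phase. Those named here spanned the pathway from Hmgcs1, Mvk, Pmvk and Mvd of the mevalonate steps through Fdps, Fdft1 and Sqle of the squalene steps to Lss, Cyp51, Msmo1, Hsd17b7, Sc5d and Dhcr7 of the sterol ring steps. The amplitudes ran from 0.334 for Sc5d to 0.649 for Fdps. Their regulators were not called, Srebf2 at an amplitude of 0.168 (adjusted p = 0.308 in edgeR's test) and Insig1 at 0.025 (0.989), and Stard4 peaked elsewhere, at ZT6.90, with an adjusted p of 0.33. Without the label-discordant libraries 10 were called, without the pancreatic ones 11, without those with muscle RNA 6, and without all 7 none.

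Dhcr7 (chromosome 7, 143823167 to 143848410), the last enzyme of cholesterol synthesis, was at 225, 202, 139 and 164 CPM at ZT22 and at 153, 162, 204 and 166 CPM at ZT2, against 83.3, 75.6, 84.3 and 71.2 CPM at ZT10. No liver of any other time was as low as those of ZT10, the next being the discordant liver of ZT6 at 90.9 CPM. The amplitude was 0.514 (standard error 0.0748) and the peak ZT22.8 (standard error 0.556 h), with an adjusted p of 6.78e-04 in edgeR's test. Fdps, farnesyl diphosphate synthase, kept to the same hours with 639, 556, 395 and 449 CPM at ZT22, 448, 505, 500 and 497 CPM at ZT2, and 204, 171, 153 and 162 CPM at ZT10. Dhcr7 and Fdps had amplitudes of 0.456 and 0.538 without the 7 doubted libraries, each at an adjusted p of 0.0678.

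Genes of fatty acid synthesis and storage did not share a peak. Of 19 tested insulin-driven and lipogenic genes 6 were called (31.6%, against 4.34% of all genes). Among them were Elovl5 at ZT4.11, the ChREBP gene Mlxipl at ZT6.24, Lpin1 at ZT12.0, the triglyceride synthase Dgat2 at ZT15.4 and ATP citrate lyase (Acly) at ZT23.9. Fasn, Scd1 and Srebf1, the fatty acid synthase, the desaturase and their activator, had amplitudes of 0.141, 0.257 and 0.211 (adjusted p = 0.659, 0.176 and 0.521 in edgeR's test). The count was 4 without the label-discordant libraries, 2 without the pancreatic ones, 1 without those with muscle RNA, and 1, Lpin1, without all 7 doubted ones.

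Lpin1 (chromosome 12, 16535669 to 16653903) makes diacylglycerol and also works as a coactivator of fat burning. It measured 48, 95.1, 265 and 157 CPM at ZT10 and 181, 116, 95.1 and 106 CPM at ZT14, against 24.4, 30.5, 44.3 and 53.3 CPM at ZT2 and 41.5, 39.2, 40.3 and 44.5 CPM at ZT22. All ZT14 livers lay above all those of ZT2, ZT6 and ZT22, while the ZT10 livers spread widely, with the discordant one highest. The amplitude was 0.903 (standard error 0.145), the peak ZT12.0 (standard error 0.613 h) and the adjusted p 2.05e-04 in edgeR's test, and without the 7 doubted libraries the amplitude was 0.665 at an adjusted p of 0.0142. Acss2, which makes acetyl-CoA from acetate, had the largest amplitude among genes of at least 10 CPM in the window from ZT0 to ZT4, 0.627, with a mean of 272 ± 76.1 CPM at ZT2 and 102 ± 17.8 CPM at ZT10 (SD, n = 4). Cth, cystathionine gamma-lyase, followed in that window with an amplitude of 0.496.

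The lists of fasting and of fat oxidation are set against the 4.34% called over all genes. Of 14 fasting, gluconeogenic and FOXO genes 1 was called (7.14%), the insulin receptor Insr, and Pck1, G6pc and Igfbp1 had amplitudes of 0.387, 0.632 and 0.876 at adjusted p values of 0.248, 0.191 and 0.111 in edgeR's test. Of 22 fatty acid oxidation and PPAR-alpha genes 4 were called (18.2%), the lipid droplet genes Plin5 and Plin2 at ZT18.0 and ZT0.587, the carnitine transferase Cpt1a at ZT6.48 and the ketone enzyme Bdh1 at ZT8.83. The 4 became 2 without the label-discordant libraries, 1 without the pancreatic ones, 1 without those with muscle RNA and 0 without all 7, and Insr was not called without all 7. Insr was at 27.7, 30.8, 28.6 and 31.1 CPM at ZT14 and 24.3, 25.1, 30.6 and 28.6 CPM at ZT18, below every liver of ZT2, ZT6 and ZT10, where the lowest was 35.9 CPM. Plin5 was at 89, 80.7, 92.8 and 71.5 CPM at ZT18 and at 44.3, 30.3, 35.3 and 41 CPM at ZT6, without overlap, and at ZT10 it ran from 20.3 CPM in the discordant liver to 66.6 CPM.

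Of 12 bile acid genes 2 were called (16.7%, against 4.34% of all genes), both with a peak in the light, the bile salt export pump Abcb11 at ZT5.58 and the phospholipid flippase Abcb4 at ZT7.36, with amplitudes of 0.289 and 0.278. The 2 became 1 without the pancreatic libraries and 0 without those with muscle RNA or without all 7, where the adjusted p values were 0.196 and 0.203 in edgeR's test. Abcb11 stood at 418, 354, 345 and 303 CPM at ZT6 and 356, 327, 379 and 343 CPM at ZT10, against 239, 284, 223 and 264 CPM at ZT14 and 208, 245, 273 and 249 CPM at ZT18, with no overlap between these light and dark times. The conjugate exporter Abcc2 (MRP2), listed under detoxification, peaked at ZT8.44 with an amplitude of 0.413 (standard error 0.0658, adjusted p = 0.00118 in edgeR's test) and measured 124, 151, 223 and 134 CPM at ZT10 and 84.5, 85.8, 69.7 and 75.2 CPM at ZT18. Cyp7a1, the rate-limiting enzyme of bile acid synthesis, had an amplitude of 0.395 and an adjusted p of 0.662.

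Of 24 detoxification genes 3 were called (12.5%, against 4.34% of all genes). They were Abcc2, uridine phosphorylase Upp2 and the coumarin hydroxylase Cyp2a5, all with peaks between ZT8.44 and ZT9.68. Cyp2a5 had an adjusted p of 0.033 in edgeR's test with the 24 libraries and 0.379 without the label-discordant ones, and Upp2 had 0.0122 there. The 3 became 2 without the label-discordant libraries, 2 without the pancreatic ones, 3 without those with muscle RNA and 0 without all 7. Of 25 urea cycle and amino acid genes 4 were called (16%, against 4.34% of all genes). They were alanine transaminase Gpt2 at ZT14.2, the arginine transporter Slc7a2 at ZT6.44, the glutamine transporter Slc38a2 at ZT7.16, and Sds at ZT11.8. The 4 became 6 without the label-discordant libraries, 4 without the pancreatic ones, and 0 without those with muscle RNA or without all 7. Gpt2 stood at 301, 250, 240 and 243 CPM at ZT14 and at 173, 145, 142 and 148 CPM at ZT6, without overlap.

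Of the 23 genes in the actin, tubulin and serum response list 4 were called (17.4%, against 4.34% of all genes), 3 of them immediate early genes with a peak in the light. The 4 became 3 without the label-discordant libraries, 2 without the pancreatic ones, 2 without those with muscle RNA and 1 without all 7. Egr1, an early growth response factor, was read at 35.1, 65.6, 45.3 and 27.5 CPM at ZT6, and at most at 10 CPM in any liver of another time, with 1.01, 1.13, 1.38 and 1.37 CPM at ZT14. The amplitude was 1.32 (standard error 0.339) and the adjusted p 0.00114 in edgeR's test, and 0.101 without the 7 doubted libraries. Since all 4 livers of a single time stood high, a cosine describes its shape only roughly. Junb and Ier2 peaked at ZT7.72 and ZT9.08 with amplitudes of 0.523 and 0.363, and Junb was not called without the label-discordant libraries (adjusted p = 0.143). The other called gene was Tuba1c, an alpha-tubulin, with 130, 138, 130 and 112 CPM at ZT18, above every other liver, and an adjusted p of 0.00334.

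Among the genes of at least 10 CPM with the largest amplitude of each window, the FOXO target Depp1 and the arrestin-like Arrdc3 peaked at ZT4.62 and ZT6.57, with amplitudes of 1.09 and 0.777. Arrdc3 was not called without the label-discordant libraries or without the pancreatic ones (adjusted p = 0.0813 and 0.0759 in edgeR's test). Without the libraries with muscle RNA Depp1 was not called (adjusted p = 0.0918 in the same test). Depp1 measured 113, 248, 165 and 120 CPM at ZT6 and 11.3, 4.35, 12.3 and 9.29 CPM at ZT14. At ZT2 its males stood at 3.71 and 7.70 CPM and its females at 55.1 and 89.7 CPM, and the test of a difference between the sexes was not passed (adjusted p = 1 in edgeR's test). Bcl6, a repressor of growth hormone targets, had an amplitude of 1.05 at ZT10.7. It was the 1 called of 12 growth hormone and IGF axis genes (8.33%, against 4.34% of all genes). At ZT10 its males stood at 35.3 and 34.5 CPM and its females at 22.9 and 12.9 CPM. At ZT14 the males stood at 37.4 and 20 CPM and the females at 2.77 and 2.89 CPM (adjusted p of the sex difference 0.212 in edgeR's test). Acmsd, an enzyme of tryptophan breakdown, had an amplitude of 0.738 at ZT22.2, and the acute phase gene Saa3 one of 0.668 at ZT21.2, which rested on the male replicate 1 at ZT22 with 142 CPM (adjusted p = 0.124 without it).

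H1f2 and Tedc2 peaked between ZT12 and ZT20. H1f2, a linker histone, was at 48, 65.4, 63 and 85 CPM at ZT18 and 52.9, 40.1, 51.7 and 41.4 CPM at ZT14, above every liver of the other 4 times, where 34.9 CPM was the highest. Its amplitude was 1.07 (standard error 0.142) and its peak ZT18.0 (standard error 0.508 h), the smallest standard error of a peak among the 10 genes of smallest p and at least 2-fold swing. Tedc2, a centriole gene, had an amplitude of 0.929 at ZT15.7. None of 20 cell cycle genes was called with the 24 libraries and 1 without the label-discordant ones.

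The remaining 6 of those 10 genes by p were not in the lists or were markers of the pancreas, namely Ctrb1, Reg1, Sycn, Rnase1, Pnlip and Cpa1 at ZT17.5 to ZT18.2, with amplitudes from 1.04 to 1.65. They are digestive enzymes and secretory proteins of the exocrine pancreas. Ctrb1 was read at 800 and 354 CPM in the 2 livers of ZT18 with pancreatic RNA and at most at 13.6 CPM in the other 22. Of 6 pancreas markers 5 were called with the 24 libraries and 1 without those 2. Likewise Acta1, called with a peak at ZT14.5, rested on the livers with muscle RNA, and its adjusted p was 0.51 in edgeR's test without them.

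The ribosomal lists are set against the same 4.34%. None of 54 cytosolic ribosomal protein genes was called in edgeR's test, with a median amplitude of 0.131 against 0.153 over all genes, and 2 passed the rule of the study. Of 28 ribosome biogenesis genes 1 was called (3.57%, against 4.34% of all genes), nucleolin (Ncl), which was not called without the muscle libraries, at 69.1, 88.2, 93.5 and 80.8 CPM at ZT10 and 56.1, 56, 58.7 and 57.3 CPM at ZT18, with a peak at ZT10.4 and an amplitude of 0.289.

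Markers of other liver cells, which keep their own clock, were read beside these. None of the 8 macrophage markers was called, yet all 8 had fitted peaks between ZT19.0 and ZT21.4, and their summed level had medians of 264 CPM at ZT2, 302 at ZT6, 264 at ZT10, 352 at ZT14, 378 at ZT18 and 512 at ZT22. Of 5 neutrophil markers S100a8 and S100a9 were called, both near ZT24, and the sum had a median of 30.2 CPM at ZT22 and 5.17 CPM at ZT14. None of the 8 endothelial, 5 cholangiocyte, 8 lymphocyte, 5 erythroid or 3 adipocyte markers was called with the 24 libraries, and 1 of 8 stellate cell markers (Col3a1) and 1 of 7 hepatocyte markers (Cyp2e1) were. The macrophage sum ran from 387 to 545 CPM at ZT22 and from 168 to 332 CPM at ZT10. Whether a change in these cells takes part in the rhythms above was not tested.

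**Figure D4:**
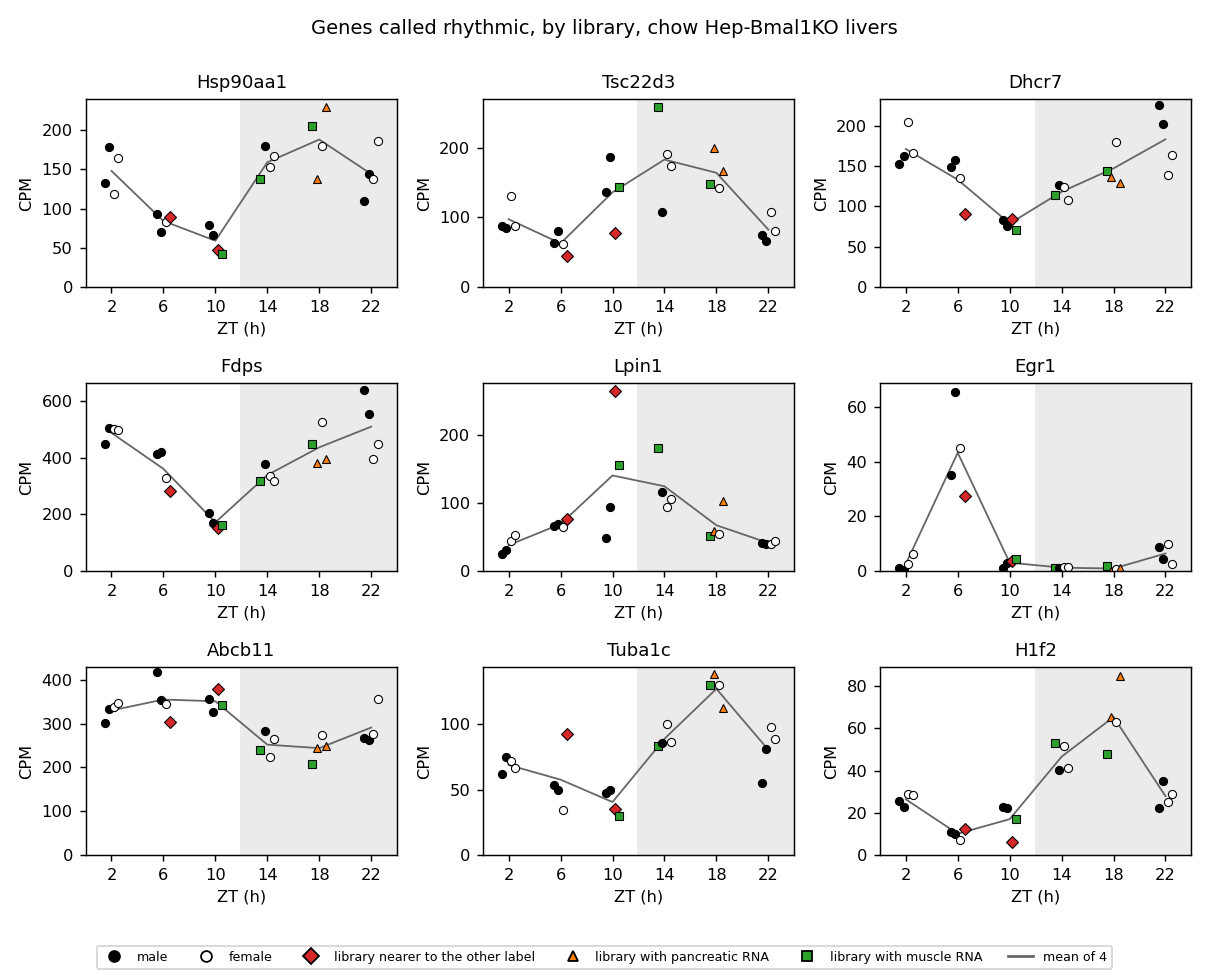
CPM (vertical axes, linear, from 0) of 9 called genes against ZT in hours (horizontal axes, dark phase shaded), with 1 point per library, the 7 doubted libraries marked by symbol, and a line through the means of 4. Egr1 is high at ZT6 alone, Dhcr7 and Fdps are lowest at ZT10, Tuba1c and H1f2 have their highest mean at ZT18, and of the 4 ZT18 livers 3 are doubted.

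The clock genes called had a circular mean peak at ZT10.2, the glucocorticoid-responsive genes at ZT13.0, the heat shock genes at ZT18.9 and the sterol genes at ZT22.7. The lists were chosen with results of these livers known, and no order between them was tested.

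**Figure D5:**
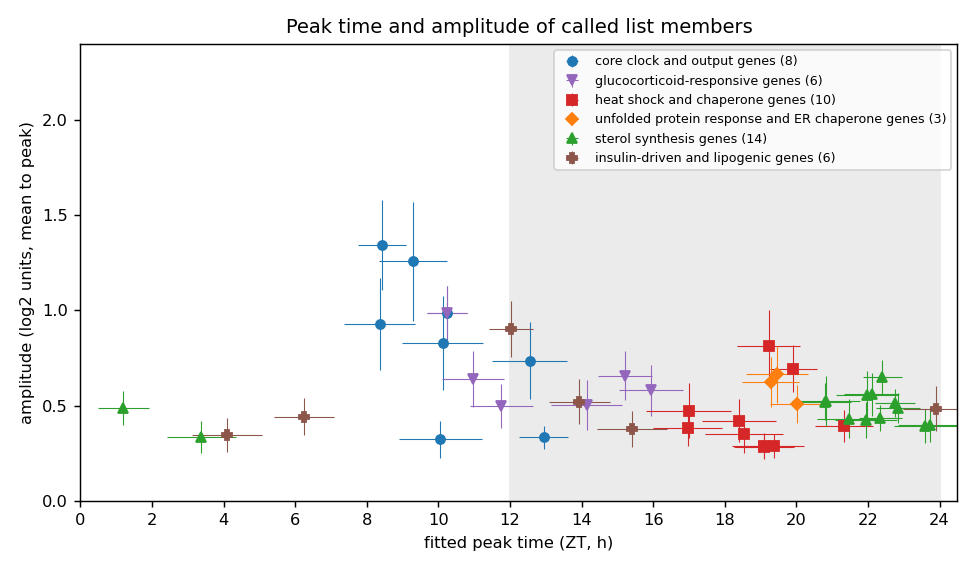
Amplitude on the log2 scale (vertical axis) against fitted peak time in ZT hours (horizontal axis, dark phase shaded) of the called members of 6 lists, with bars of 1 standard error on both axes and the number of members called in the key. Clock genes lie between ZT8.36 and ZT13.0, heat shock genes between ZT17.0 and ZT21.3, and sterol genes from ZT20.8 through ZT24 to ZT3.38.

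The 12-hour test called 25 genes. The smallest p values belonged to Hspa5, Cnppd1 and the acute phase gene Saa2, each at an adjusted p of 0.0144 in edgeR's test. Saa2 stood at 1070 and 330 CPM in the males of ZT22 and at 234 CPM in a male of ZT10, and at most at 28.1 CPM in the other 21 livers. The 3 points a cycle that sampling every 4 hours gives cannot tell a 12-hour wave from a sharp single peak. At an unadjusted p under 0.05 there were 1955 genes, and 9 were called without the label-discordant libraries.

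Rhythms of the 12 males and the 12 females differed by test for 4 genes (0.0257%), namely Duox2, Cyp4a14, Spink4 and the predicted gene Gm8893, which the naming rule skips. Duox2 and Spink4 averaged 0.481 and 0.499 CPM and were at 0 in most livers. Cyp4a14, a PPAR-alpha-driven fatty acid hydroxylase, ranged from 29.5 to 430 CPM in males and from 362 to 1220 CPM in females. The males stood at 430 and 200 CPM at ZT6 and between 29.5 and 79.5 CPM at ZT14, ZT18 and ZT22, while the females of ZT18 stood at 1040 and 1220 CPM. The adjusted p of the difference was 0.0454, and no gene was called without the label-discordant libraries, with 893 genes at an unadjusted p under 0.05. In males alone 227 genes were called rhythmic, in females alone 137, and 49 in both, of which 31 had peaks within 2 h of each other.

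Compared with the 24 other Hep-Bmal1KO livers, of mice fed a choline-deficient high-fat diet (cdHFD) for 2 weeks, the rhythm on chow differed for 141 genes (0.907%), of which 74 were among the 675. The diets lay in different library columns and in separate ranges of mouse numbers, so diet cannot be told apart from these. In the cdHFD livers 596 genes were called rhythmic (3.83%), and 101 were called on both diets, 48 of them with peaks within 2 h. The 101 included the pancreas genes Ctrb1, Reg1, Sycn, Rnase1, Pnlip and Cpa1 and the muscle gene Acta1. Of these, Sycn, Rnase1, Pnlip, Cpa1 and Acta1 had peaks within 2 h. The cdHFD libraries were not screened for pancreatic or muscle RNA, so both counts hold more than liver transcripts. One cdHFD library, a male of ZT14, was also nearer to the other label, and without the 3 discordant libraries of both diets 183 genes differed. Sterol genes were among those that differed. Dhcr7, Fdps and Hsd17b7 had amplitudes of 0.514, 0.649 and 0.435 on chow and 0.261, 0.385 and 0.187 on cdHFD (adjusted p of the difference 0.019, 0.0259 and 0.00767 in edgeR's test), and the fitted peak of Fdps was at ZT22.4 on chow and ZT17.0 on cdHFD. Egr1 had an amplitude of 1.32 on chow and 0.146 on cdHFD (0.00626), and Hsp90aa1 peaked at ZT19.9 and ZT14.4 (0.0257). Per1 and Dbp did not pass this test, with amplitudes of 0.986 and 1.26 on chow and 0.663 and 1.30 on cdHFD (adjusted p = 0.329 and 0.573).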

How the data were processed

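Livers of the 24 chow Hep-Bmal1KO mice were compared by time of day. The values are raw counts per gene as deposited by the authors, who had used STAR against mm10, with HTSeq and featureCounts both named (versions not given in the sources used here). Whether reads of the same molecule were collapsed is not given in the sources used here. Rows that name no gene were left out of all sums: 6.52 to 9.79% of a library's reads lay on no gene and 14.8 to 26.3% were not aligned. Of 55487 genes, the 15548 with at least 100 counts over the 96 libraries were tested.

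Rhythms were tested with edgeR 4.0.16 (quasi-likelihood F test of a cosine and a sine of 24 h, TMM scaling) in R 4.3.3, with Benjamini-Hochberg adjustment over all genes, and CPM was computed with the same scaling. Amplitude and peak time came from a least-squares cosinor on values of DESeq2 1.42.0's variance-stabilizing transformation over all 96 libraries, with delta-method standard errors. The 12-hour terms, time by sex, and time by diet within the Hep-Bmal1KO label were tested in the same way. In data simulated at these depths, 83.0% of 100 genes of amplitude 0.5 and 98.0% of 100 of amplitude 1 were called, and 0.0787% of 15248 flat genes. The rhythmic genes were drawn from those of at least 10 CPM, and no label-discordant library or foreign RNA was simulated. These shares therefore do not describe the error rates in the real libraries. Gene positions are from RefSeq (GRCm38.p6), which gave a position for 14764 of the genes.

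Groups, sex and ZT were taken from the labels, which give each sample of a ZT its own mouse number. Replicate numbers were given in accession order, and the pairs of libraries of a ZT differed by more than sampling noise (36 pairs, chi-square per gene 7.04 to 84.7). Genes were named by rule: the clock list, the 10 of smallest p with at least 2-fold swing, the 2 of largest amplitude per peak window at 10 CPM or more, up to 3 called members of each list, and the 3 of smallest p in each further test. Symbols of predicted genes were skipped. The samples and the lists were chosen with earlier results of these data known. Alternatives were other tools, scalings, filters, call rules, each sex, and left-out libraries. The libraries with pancreatic or muscle RNA were singled out after their values had been seen. A planned description of promoter motifs was not run, as no promoter sequences were at hand. Some called list members are counted but not reported by name here.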

Additional observations from a re-analysis of the deposited data

Results flagged for a closer look

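Within a time of day, 13 of 114 sets of 4 livers held a value whose gap to the nearest other liver exceeded 0.829 of the set's range, where chance gives about 1 in 20. The label-discordant female replicate 4 at ZT6 accounted for Nr1d1 at 71.4 CPM (others 9.25 to 14.1), Dbp at 125 CPM (8.71 to 14.0) and Ciart at 6.61 CPM (0 to 0.447). Its counterpart at ZT10, the female replicate 3, did so for Nr1d1 at 45.2 CPM (5.86 to 9.04), Dbp at 319 CPM (20.9 to 37) and Ciart at 21.2 CPM (0.475 to 3.34). Nr1d1 and Dbp were part of the score that marked these livers, and Ciart was not. Libraries with pancreatic or muscle RNA gave Lpin1 at 104 CPM in the female replicate 4 at ZT18 (51.6 to 59.5) and Gpt2 at 301 CPM in the male replicate 1 at ZT14 (240 to 250). The others were Per1 at 6.90 CPM in the male replicate 2 at ZT2 (2.53 to 2.78), Ciart at 0.733 CPM in the female replicate 3 at ZT18 (0.154 to 0.228), Insr at 39.7 CPM in the male replicate 1 at ZT22 (28.8 to 30.3), Abcb11 at 357 CPM in the female replicate 4 at ZT22 (262 to 277) and Gpt2 at 150 CPM in the female replicate 4 at ZT2 (184 to 187).

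Between the chow and the cdHFD livers of the Hep-Bmal1KO label, the 24-hour curve differed in edgeR's test for 16 of the named genes. Diet cannot be told apart from library column there. Over all genes the share was 0.907%. Zbtb11os1 and Fh1 were named by this test itself, and Egr1 by it and by its list. The others were named for a small p or a large amplitude on chow, and the same chow values enter this test. The count of 16 is therefore no separate evidence. The adjusted p was 0.00626 for Egr1, 0.00729 for Zbtb11os1, 0.00767 for both Hsd17b7 and Fh1, 0.00781 for Acmsd, 0.011 for Acly, 0.019 for Dhcr7, 0.0251 for Reg1, 0.0257 for H1f2, Acss2, Hsp90aa1 and Abcb11, 0.0259 for Fdps, 0.0391 for Abcc2, 0.0408 for Gpt2 and 0.0433 for Cth. Among these genes of the diet test, Reg1 is a gene of the pancreas. Between the sexes on chow, the adjusted p was 0.0353 for Duox2, 0.0454 for Cyp4a14 and 0.048 for Spink4. They were named by the sex test itself, which called 0.0257% of all genes.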

How the results depend on the processing

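With 675 genes called rhythmic over 24 h by edgeR, other choices gave 1149 (DESeq2's likelihood ratio test), 2049 (ZT as a factor with 6 levels), 1380 (dispersion estimated over the 48 Hep-Bmal1KO libraries), 1728 (the rule of the study with the tools at hand), 262 (JTK_CYCLE alone), 339 (cosinor alone), 227 (males) and 137 (females). Without the pancreatic libraries, those with muscle RNA, and all 7 doubted ones, sets chosen after seeing the data, there were 261, 204 and 14. Leaving out 1 library gave 430 to 835, the lowest without the male replicate 1 at ZT18. Fewer samples enter the sex and exclusion fits, and otherwise the cause was not tested. The 25 genes of the 12-hour test became 9 without the label-discordant libraries, 292 by DESeq2, 42 with at least 10 counts in 4 libraries, 54 with no filter, 92 with sex as a covariate, 13 without the muscle libraries, 0 without all 7 (1749 at an unadjusted p under 0.05), and 8 to 44 with 1 library left out (8 without the female replicate 4 at ZT14). The 4 genes of the sex test became 0 without the label-discordant libraries, 12 by DESeq2, 0 with at least 10 counts (562 at an unadjusted p under 0.05), 264 with no filter, 8 without the pancreatic libraries, 8 without all 7, and 0 to 9 with 1 left out (0 without the female replicate 3 at ZT2). The 141 genes of the diet test became 344 by DESeq2, 223 with sex as a covariate, 78, 61 and 50 without the pancreatic, muscle and all 7 doubted libraries, and 87 to 208 with 1 left out (87 without the male replicate 2 at ZT18). Over the 675 genes, the median amplitude stayed between 0.309 and 0.444 and, with 1 library left out, between 0.356 and 0.398. The share of peaks at ZT12 to ZT24 was 44.1% in females alone and 49.2 to 50.5% with 1 library left out. Of the 54 named genes called, the call held for 52 by DESeq2, 49 without the label-discordant libraries, 38 without the pancreatic and 35 without the muscle libraries, 5 without all 7, and 43 in every fit with 1 library left out. No paired analysis was possible because each library came from a different mouse, killed once. Depth limits genes under about 1 CPM, such as Duox2 and Spink4.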

Other observations

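The genes in the next sentences were chosen after their values had been seen. The sterol exporters Abcg5 and Abcg8, which form 1 transporter and share a divergent promoter, peaked together in the light, at ZT8.26 and ZT7.29, with amplitudes of 0.493 (standard error 0.0834) and 0.738 (standard error 0.104). Their adjusted p values in edgeR's test were 0.00231 and 2.39e-04, and without the 7 doubted libraries their amplitudes were 0.513 and 0.773. Abcg5 and Abcg8 had means of 61.4 and 82.1 CPM at ZT6 and of 67.4 and 82.9 CPM at ZT10. The sterol synthesis genes Dhcr7 and Fdps had means of 133 and 361 CPM at ZT6 and of 78.6 and 172 CPM at ZT10. A relation between exporters and synthesis genes was not tested. The neutrophil genes S100a8 and S100a9 peaked at ZT0.789 and ZT23.3 with amplitudes of 0.776 and 0.734, and were not called in the cdHFD livers of the same label (adjusted p = 0.927 and 0.904).

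Several of the 25 genes with a 12-hour term (0.161% of those tested) belong to protein folding. Among them were Hspa5, Creld2, Hsph1, Dnaja1, Ppid and Hsp90aa1, at adjusted p values of 0.0144, 0.0329, 0.0329, 0.0419, 0.0175 and 0.042 in edgeR's test. The share of all folding genes with such a term was not counted. At ZT2 Creld2 stood at 103 and 92.1 CPM in males and at 21.4 and 33.7 CPM in females. Males also lay above females there for Hspa5, Hsph1 and Dnaja1, while the sexes overlapped for Ppid and Hsp90aa1. The ornithine decarboxylase gene Odc1 and the acute phase genes Saa1 and Saa2 were called too, at 0.0329, 0.0329 and 0.0144 in the same test. Saa1 stood at 3170 and 1280 CPM in the males of ZT22 and at 541 CPM in a male of ZT10. In the other livers it reached at most 102 CPM.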
